A study of Mus musculus with 30 samples.

Results

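Ddit3, Ddit4, Atf3, Atf4, Atf5, Trib3, Asns and Xbp1 are 8 genes in and around the integrated stress response, Ddit standing for DNA-damage-inducible transcript. They were followed here by name through mouse embryonic fibroblasts (MEFs) exposed to activators of the stress-activated protein kinase p38. Every probe that the array design names for 1 of these genes was taken, which gave 9 probes of 33453 probes with a gene name and 8 genes of 21689. Trib3 had 2 probes and each other gene had 1. The rule uses gene names and no measured value.

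The integrated stress response is the pathway by which kinases such as PERK and GCN2 phosphorylate the translation initiation factor eIF2α. General translation then slows while Atf4 mRNA is translated better. The ATF4 protein switches on genes for amino acid supply (Asns), further transcription factors (Atf3, Ddit3, which encodes CHOP, and Atf5), the pseudokinase Trib3, which binds ATF4 and dampens it, and Ddit4, which encodes REDD1, an inhibitor of mTORC1 signalling. Xbp1 belongs to a neighbouring branch of the unfolded protein response, in which IRE1 splices its mRNA. Atf3 is also an immediate early gene that several stress kinase pathways can induce within minutes.

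Immortalised wild type (wt) MEFs and p38α-/- MEFs were compared in 15 groups of 2 arrays, 30 arrays in all. Wt MEFs received anisomycin, an inhibitor of translation elongation that also activates stress kinases, at 25 ng/ml for 45 min, TNFα at 100 ng/ml for 45 min, or 100 mM NaCl for 45 min, 2 h or 8 h. The same 5 treatments, and no stress, were given with SB203580, a chemical inhibitor of p38α and p38β. For its dose and time the protocol and the authors' methods give 10 µM for 30 min before the stress. The sample titles conflict with this and give 10 mM and 2 h. The p38α-/- MEFs were left untreated or received anisomycin (45 min), TNFα (45 min) or NaCl (2 h). Each array set Cy5-labelled RNA of a treated culture against Cy3-labelled RNA pooled from 2 untreated wt cultures, so the pool is the only untreated wt sample and each value is a log2 ratio of sample to pool. No dyes were swapped and the pool's own spread is not measured, so tests against the pool leave that spread out and keep any dye bias. The wt and knockout lines each stand for a genotype, so line and genotype cannot be told apart.

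Mapk14, the gene of p38α, checked the labels. Its log2 ratio lay between -2.24 and -0.94 on the 8 knockout arrays and between 0.03 and 1.31 on the 22 wt arrays, with no overlap. All 12 fibroblast markers on the array (collagens, Fn1, Vim, Thy1 and others) were well above background in Cy5 on every array, with summed signals of 548050 to 1169096 in wt and 835736 to 1236729 in knockout MEFs. The summed signals of the epithelial list (3 of 8 markers on the array), the endothelial list (7 of 7), the macrophage list (6 of 7) and the skeletal muscle list (6 of 6) reached at most 24080, 26329, 35135 and 33237, although nearly all those probes also passed the background test. The 9 member probes were well above background in both channels on all 30 arrays and no spot was saturated. These are bulk samples, so fewer cells with a transcript and less transcript per cell cannot be told apart.

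The scanner software marked many member spots as pixel or population outliers, and this limits what can be tested. Atf4 was marked on 28 of 30 arrays, Atf5 on 20, Ddit3 on 14, Ddit4 on 12, Atf3 on 11 and Asns on 10, while Xbp1 was marked on 2 and each Trib3 probe on 1. Marks fell on 55.6% of the member spots on array 2 of the wt groups against 17.2% on array 1, and on 44.4% and 30.6% for arrays 1 and 2 of the knockout groups. Over all spots the share marked ran from 6.775% to 44.84% per array. With marked spots left out, only 15 of the 40 pairs of member and wt stress treatment had both arrays. The values below therefore keep all spots, with limma fitted over the 21675 genes so measured and p adjusted by Benjamini-Hochberg within each comparison. Results from unmarked spots alone are given as counts for each set of comparisons, and for single members where named. "Called" means an adjusted p under 0.05, and array 1 and array 2 are the numbers the labels give to the replicates, which stem from 2 independent experiments. Keeping marked spots lowered the all-gene median in every comparison with the pool. With SB203580 alone it was -0.089 against 0.012 from unmarked spots, with 2969 genes called higher and 5992 lower against 2243 and 1790. With anisomycin these counts were 1406 and 3951 against 898 and 974.

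Promoter sequences are shown for the genes with the largest rise after anisomycin, Atf3 and Ddit3, and for Asns, which carries an ATF4-type motif but did not rise. All 8 members matched the RefSeq promoter table of GRCm38.p6. Capitals mark matches on either strand to TGATGNAA, the C/EBP-ATF composite element bound by ATF4 with a C/EBP partner, or to TGANTCA, the AP-1 element bound by Fos and Jun proteins, and each run is the 250 bases before the start of the gene.
Atf3, chr1:191183334-191183583, minus strand: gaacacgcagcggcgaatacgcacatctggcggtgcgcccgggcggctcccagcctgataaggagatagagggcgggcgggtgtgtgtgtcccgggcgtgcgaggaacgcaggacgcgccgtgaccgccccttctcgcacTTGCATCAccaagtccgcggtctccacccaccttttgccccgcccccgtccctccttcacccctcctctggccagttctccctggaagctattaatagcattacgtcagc
Ddit3, chr10:127290543-127290792, plus strand: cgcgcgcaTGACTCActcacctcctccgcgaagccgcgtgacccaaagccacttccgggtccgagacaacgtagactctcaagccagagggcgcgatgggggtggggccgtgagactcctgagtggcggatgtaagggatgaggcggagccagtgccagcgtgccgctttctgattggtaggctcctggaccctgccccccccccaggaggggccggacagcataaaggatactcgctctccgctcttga
Asns, chr6:7693210-7693459, minus strand: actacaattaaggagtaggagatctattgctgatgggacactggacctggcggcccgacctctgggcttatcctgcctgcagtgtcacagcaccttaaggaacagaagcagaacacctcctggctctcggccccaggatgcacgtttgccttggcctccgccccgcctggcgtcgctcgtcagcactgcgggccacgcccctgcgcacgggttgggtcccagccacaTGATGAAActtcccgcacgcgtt
The composite element lay on the reverse strand, its far end 110 bases before the start of Atf3, and on the forward strand 23 bases before that of Asns. Trib3 held it 14 bases after its start, and the AP-1 element stood 242 bases before that of Ddit3. The window of 250 bases before and 50 after the start held TGATGNAA in 3.97% of 32851 promoters, TGANTCA in 7.81% and TGACGTCA, the cyclic AMP response element, in 1.79% and in no member. A match is a description of these letters and not a bound site.

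Atf3, a bZIP repressor and activator, had the largest response of the members in wt MEFs. After anisomycin its log2 ratio was 3.75 and 3.37 on the 2 arrays, a mean of 3.56 ± 0.27 (SD, n = 2) or 11.8-fold above the pool. After TNFα it was 2.02 and 1.33, or 3.19-fold, and after 2 h in NaCl it was 1.34 and 0.99, or 2.24-fold. Both arrays of these 3 groups were above the pool, and the 2 anisomycin arrays were above all 28 others. After 45 min in NaCl the values were 0.49 and -0.03 and after 8 h -0.16 and -0.19, and neither mean was called (limma adjusted p = 0.41 and 0.551). The rises after anisomycin (limma adjusted p = 4.79e-10), TNFα (adjusted p = 8.12e-06) and 2 h in NaCl (adjusted p = 3.04e-04) were called. The 2 h value was also called from unmarked spots, with the same mean of 1.16 and an adjusted p of 0.00193, though not without its array 1 (0.99, adjusted p = 0.0821). For anisomycin and TNFα, array 2 was marked.

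Ddit3, whose product CHOP promotes apoptosis under lasting stress, rose after anisomycin but was not called after the other stresses. Its log2 ratio after anisomycin was 2.27 and 1.38, a mean of 1.82 ± 0.63 (SD, n = 2) or 3.54-fold (limma adjusted p = 1.74e-05). After TNFα it was 0.61 and 0.02, after 45 min, 2 h and 8 h in NaCl -0.32 and -0.35, -0.06 and -0.07, and -0.50 and -0.26. The 2 anisomycin arrays were above all the TNFα and NaCl arrays of wt MEFs, and all 6 NaCl arrays were below the pool, without a call.

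Across the 5 wt treatments, 4 of 40 pairs of member and treatment were called, all higher than the pool, and 8 had an unadjusted p under 0.05. With anisomycin 2 of 8 members were called against 24.7% of all genes, with TNFα 1 of 8 against 22.2%, after 45 min in NaCl none against 18.9%, after 2 h 1 of 8 against 19.6% and after 8 h none against 25.9%. The shares of all genes count rises and falls together. Of the 21675 genes, 1406, 1322, 1086, 1565 and 2256 were called higher in the 5 treatments, in the order given. Whether the members differ from all genes was not tested, and a call alone does not set them apart. From unmarked spots 1 of 15 testable pairs was called, against 13.0% of all such pairs. The plot of all members by group shows the 2 arrays behind each mean.

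**Figure D1:**
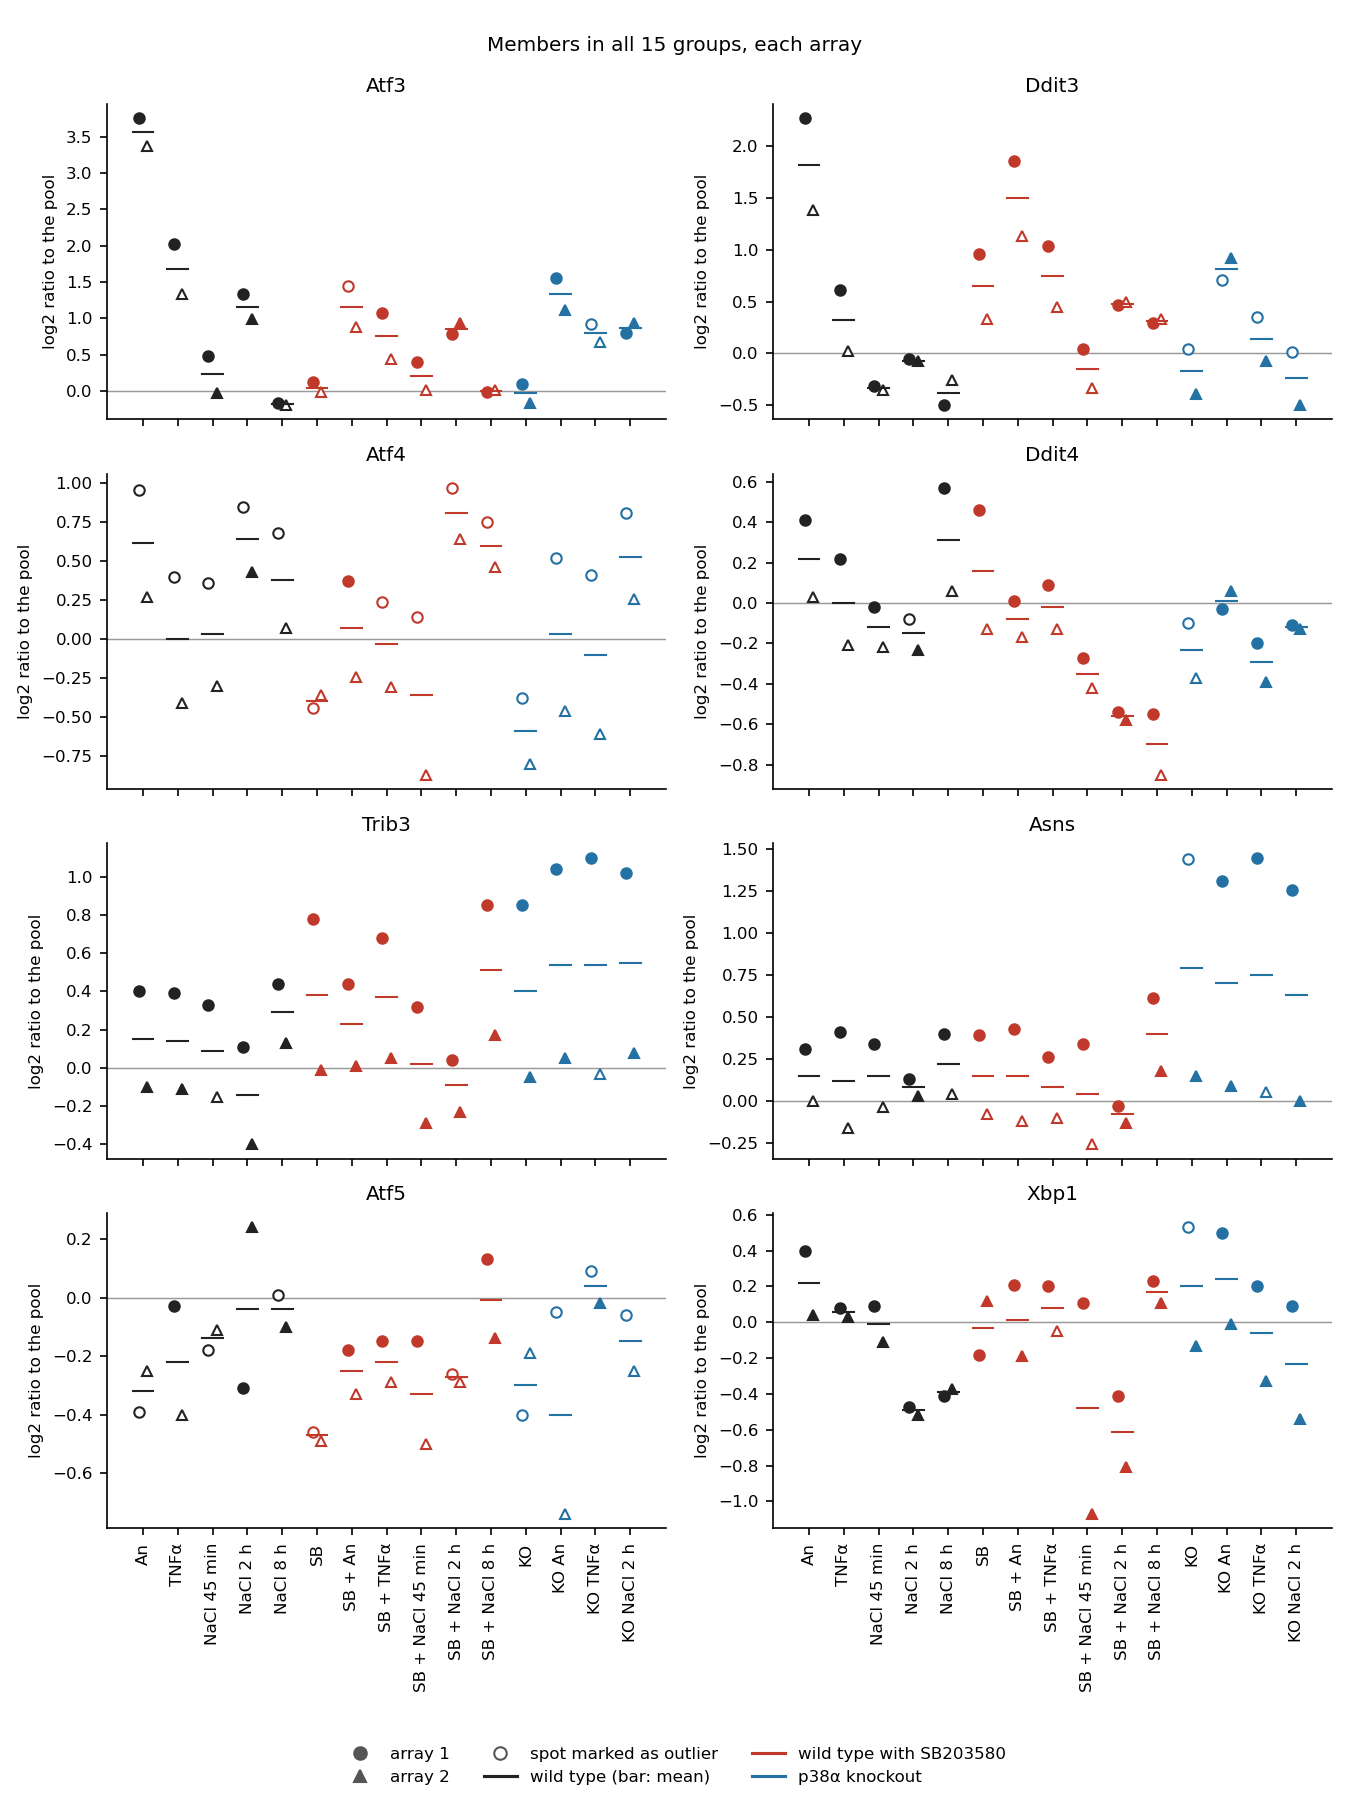
Log2 ratio of sample to pool (y axis, scaled separately for each gene) of the 8 members in all 15 groups (x axis); An is anisomycin, SB is SB203580 and KO is p38α-/-. Circles and triangles are arrays 1 and 2, open symbols are spots marked as outliers and bars are means; only for Atf3 after anisomycin in wt MEFs, at 3.75 and 3.37, do both arrays of the highest group stand above all others.

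The treatments were also set against each other at 45 min, where the pool cancels. Atf3 was higher with anisomycin than with TNFα by 1.88 (SE 0.26, limma adjusted p = 7.18e-04) and than with NaCl by 3.33 (SE 0.26, adjusted p = 1.35e-06), and higher with TNFα than with NaCl by 1.45 (SE 0.26, adjusted p = 0.0153). This last call was lost without TNFα array 1 (1.11, adjusted p = 0.473) or NaCl array 2 (1.19, adjusted p = 0.212). Ddit3 was higher with anisomycin than with NaCl by 2.16 (SE 0.31, adjusted p = 0.00174), a call lost without anisomycin array 1 (1.71, adjusted p = 0.0668). Against TNFα its difference was 1.51 (SE 0.31, adjusted p = 0.0581), and 0.00536 with the replicate number as a block. The members called were 1, 2 and 1 of 8 in the 3 comparisons, against 0.198%, 0.226% and 0.263% of all genes. From unmarked spots limma called none of the 6 testable pairs, none at an unadjusted p under 0.05, against 0.231% of all pairs.

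Atf4, the central effector, changed less, and its values differed between arrays 1 and 2 of a group. In wt MEFs its log2 ratio was 0.96 and 0.27 after anisomycin, and 0.85 and 0.43 after 2 h in NaCl. The other wt stress groups lay between -0.41 and 0.68 on single arrays. In each of these 5 groups array 1 was the higher, by 0.42 to 0.81. The means of 0.62 and 0.64 were not called (limma adjusted p = 0.149 and 0.151) but were with the replicate block (adjusted p = 0.0028 and 0.003). The block fit takes out what all arrays of a number share within a genotype. Against the pool and between knockout and wt MEFs it leaves that shared shift out of the error. The same holds where inductions over an unstressed level are compared between arms. In the same way the means after 8 h in NaCl of Atf4 (0.38), Ddit4 (0.31) and Trib3 (0.29), with adjusted p of 0.42, 0.12 and 0.577, were called with the block (adjusted p = 0.0471, 0.012 and 0.0105).

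Over time in NaCl, Atf3 was called against the pool at 2 h and not at the other times, with means of 0.23, 1.16 and -0.17. Its fall from 2 h to 8 h was called, at -1.33 (SE 0.26, limma adjusted p = 0.00268), and its difference of 0.93 between 45 min and 2 h was not (adjusted p = 0.266; 0.034 with the replicate block). From unmarked spots that difference of 0.93 had a limma adjusted p of 0.306, and 0.162 with the block. Xbp1, the factor spliced by IRE1, was -0.47 and -0.52 after 2 h and -0.41 and -0.37 after 8 h, against 0.09 and -0.11 after 45 min. The 2 h mean of -0.49 was below the pool on both arrays without a call (adjusted p = 0.128; 0.025 with the block). On unmarked spots alone limma gave this mean an adjusted p of 0.172, and 0.0531 with the block. Ddit4 was -0.02 and -0.22, then -0.08 and -0.23, then 0.57 and 0.06 at the 3 times, so all 4 earlier arrays were lower than both at 8 h. Its differences of 0.47 and 0.44 between 8 h and the earlier times had adjusted p of 0.194 and 0.247, and 0.0205 and 0.0315 with the block, and for Trib3 the difference from 2 h to 8 h of 0.43 had 0.702 and 0.0173. Between times, 0, 1 and 0 of 8 members were called for 2 h against 45 min, 8 h against 2 h and 8 h against 45 min, while 0.143%, 8.27% and 8.17% of all genes were. From unmarked spots limma called none of 7 pairs, 1 at an unadjusted p under 0.05, against 5.26% of all pairs.

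**Figure D2:**
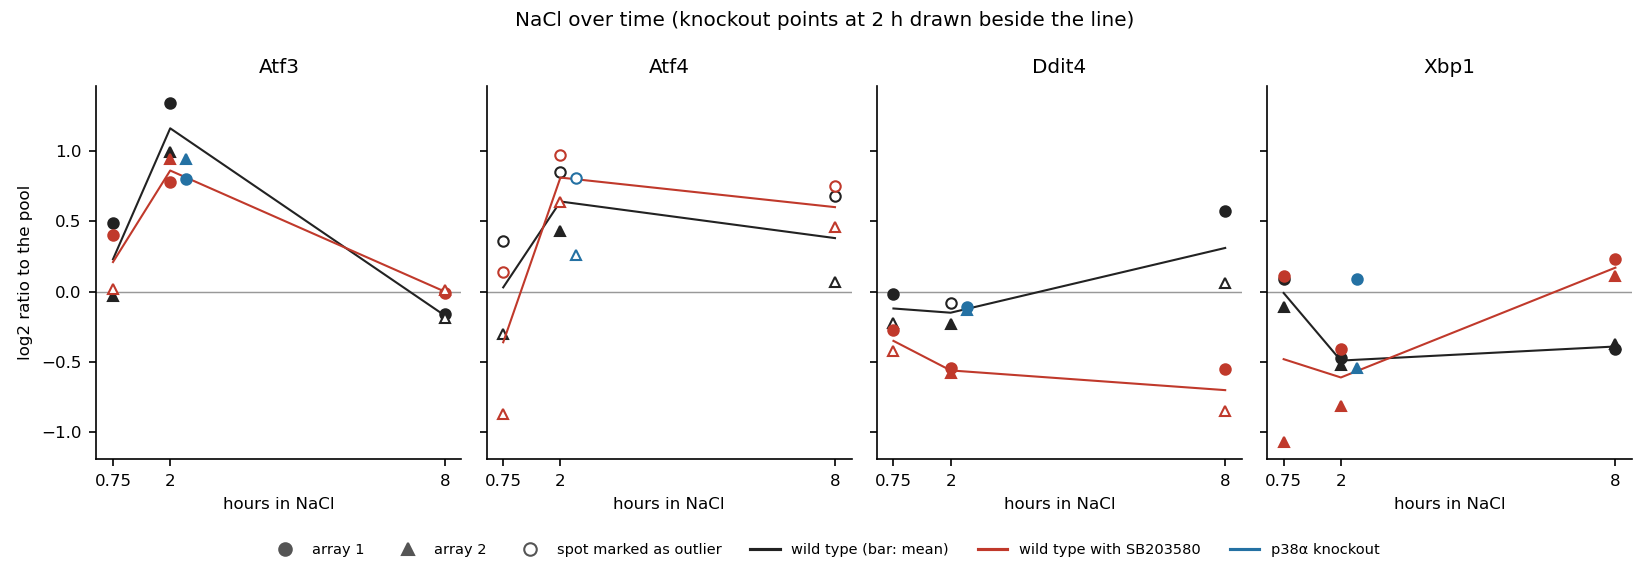
Log2 ratio of sample to pool (y axis) of Atf3, Atf4, Ddit4 and Xbp1 against hours in 100 mM NaCl (x axis) in wt MEFs without (black) and with SB203580 (red), with the p38α-/- arrays at 2 h in blue; lines join means and open symbols are marked spots. The mean of Atf3 is highest at 2 h in both arms, and at 8 h Ddit4 lies at 0.57 and 0.06 without and at -0.55 and -0.85 with the inhibitor.

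To ask how the anisomycin response depends on p38, the same treatment was read in the inhibitor and knockout arms. Atf3 was 1.44 and 0.88 with SB203580 and anisomycin, against 0.12 and -0.01 with SB203580 alone. In p38α-/- MEFs it was 1.55 and 1.12 with anisomycin, against 0.10 and -0.16 untreated. All 4 treated arrays of these arms were below both wt anisomycin arrays and above their own unstressed groups. The level under anisomycin was lower with SB203580 by -2.39 on the log2 scale (SE 0.26, limma adjusted p = 1.73e-04) and in the knockout by -2.22 (SE 0.26, adjusted p = 9.24e-05). The difference of inductions, which subtracts each arm's own unstressed level, was -2.45 (SE 0.32, adjusted p = 0.00144) for SB203580 and -2.19 (SE 0.32, adjusted p = 0.00115) for the knockout. These values rest on marked spots on wt array 2, on both arrays with SB203580 and anisomycin and on array 2 with SB203580 alone, while no knockout spot was marked. Wt arrays 2 and knockout arrays 1 were scanned in the same batch, and within it Atf3 was 3.37 in wt, 0.88 with SB203580 and 1.55 in the knockout after anisomycin.

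After anisomycin Atf3 still lay above the unstressed arrays in both arms, though neither rise was called in the fit without a block. Its induction over the arm's own unstressed level was 1.11 (SE 0.26) with SB203580 and 1.36 (SE 0.26) in the knockout, with adjusted p of 0.295 and 0.0569, and 0.0227 and 0.00276 with the replicate block. From unmarked spots the knockout value of 1.36 was not called, with a limma adjusted p of 0.149, and 0.0951 with the block. After TNFα, Atf3 was 1.07 and 0.44 with SB203580 and 0.93 and 0.68 in the knockout, all below both wt arrays at 2.02 and 1.33. The level in the knockout differed from wt by -0.87 (adjusted p = 0.209; 0.0237 with the block). The differences of inductions of -0.97 with SB203580 and -0.84 in the knockout were not called (adjusted p = 0.0621 and 0.109) and were with the block (0.011 and 0.0238). After 2 h in NaCl, Atf3 was 0.78 and 0.94 with SB203580 and 0.80 and 0.94 in the knockout, just under the wt arrays at 1.34 and 0.99. Here the differences of inductions were -0.36 (95% interval -1.02 to 0.30) and -0.26 (-0.92 to 0.40), intervals that still hold losses of as much as 1.02 and 0.92. The inductions within the arms, 0.80 and 0.90, had adjusted p of 0.109 and 0.115, and 0.0168 and 0.0128 with the block. From unmarked spots the knockout value of 0.90 was not called, with a limma adjusted p of 0.125, and 0.0679 with the block.

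**Figure D3:**
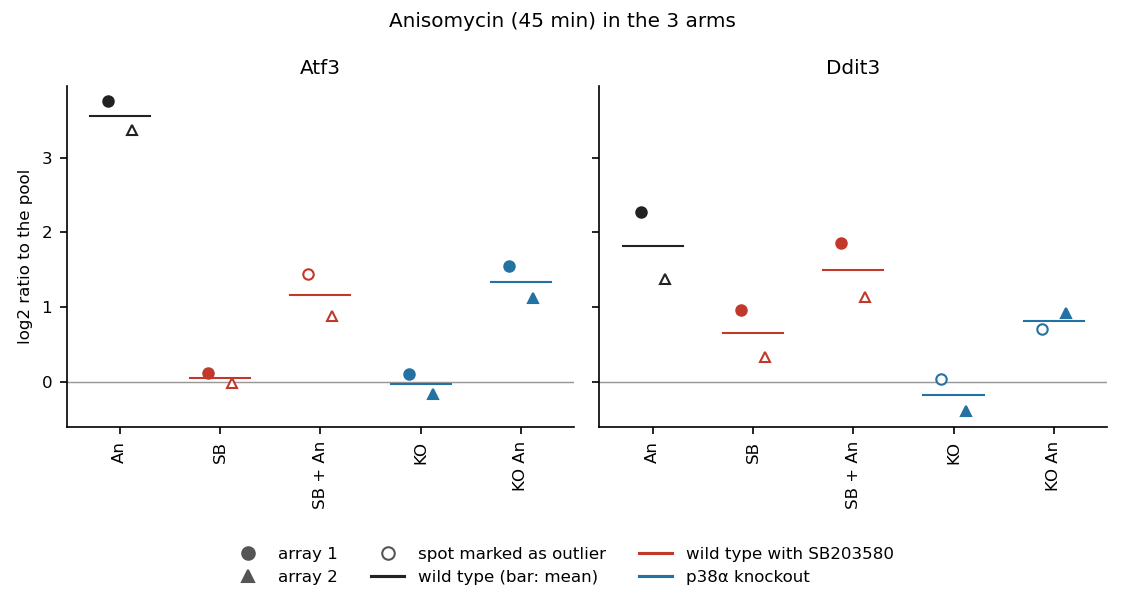
Log2 ratio of sample to pool (y axis) of Atf3 and Ddit3 after 45 min with anisomycin (An) in wt MEFs, with SB203580 (SB) and in p38α-/- MEFs (KO), beside the unstressed groups of both arms (x axis); circles and triangles are arrays 1 and 2, open symbols are marked spots and bars are means. For Atf3 the 4 treated arrays of the other arms reach at most 1.55, under both wt arrays, while for Ddit3 the inhibitor arrays at 1.86 and 1.13 overlap the wt arrays.

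Ddit3 differed less between the arms. With SB203580 and anisomycin it was 1.86 and 1.13, overlapping the wt arrays at 2.27 and 1.38, and in the knockout it was 0.71 and 0.92, below both. The knockout level differed from wt by -1.01 (95% interval -1.66 to -0.36, limma adjusted p = 0.125; 0.0229 with the replicate block), and the level with SB203580 by -0.32 (-0.97 to 0.33). SB203580 alone gave 0.96 and 0.33, a mean of 0.65 above the pool (SE 0.22, adjusted p = 0.0241), so the difference of inductions was larger, at -0.97 (adjusted p = 0.11; 0.0381 with the block), and in the knockout it was -0.84 (adjusted p = 0.192). The call for SB203580 alone was lost without its array 1 (0.33, adjusted p = 0.519) and with scanning batch as a block (0.40, adjusted p = 0.125).

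Ddit4 was the other member whose stress response differed with SB203580, after 8 h in NaCl. Its log2 ratio was -0.55 and -0.85 with the inhibitor, below 0.57 and 0.06 without it and below 0.46 and -0.13 with the inhibitor alone. The level was lower than with NaCl alone by -1.01 (SE 0.20, limma adjusted p = 0.0448) and than with SB203580 alone by -0.86 (SE 0.20, adjusted p = 0.0112). The difference of inductions was -1.18 (SE 0.25, adjusted p = 0.0236). Array 2 was marked in all 3 groups. The first of these calls was lost in 24 of 30 fits that left out 1 array (-1.27 to -0.76, adjusted p = 0.0298 to 0.454). The second call was lost without SB203580 array 1 (-0.57, adjusted p = 0.238) or array 2 of the treated group (-0.71, 0.114). The third call was lost in 4 fits, with values from -1.03 to -0.88 without NaCl array 1, SB203580 array 1 or array 2 of the treated group and -1.33 without array 1 of that group. After 2 h Ddit4 was -0.54 and -0.58 with the inhibitor and -0.08 and -0.23 without. The 2 h induction within the inhibitor arm was -0.72 (adjusted p = 0.0641; 0.00264 with the block) and its difference from wt -0.57 (adjusted p = 0.142; 0.0234 with the block). The knockout, measured at 2 h only, gave -0.11 and -0.13.

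Atf4 was lower without stress in both arms than in the pool, at -0.44 and -0.36 with SB203580 and -0.38 and -0.80 in the knockout (adjusted p = 0.307 and 0.168; 0.0249 and 0.00384 with the block). Its values after the longer times in NaCl in these arms were 0.97 and 0.64 (2 h) and 0.75 and 0.46 (8 h) with SB203580 and 0.81 and 0.26 (2 h) in the knockout, each above both unstressed arrays of the arm. After 45 min in NaCl with SB203580 they were 0.14 and -0.87, 1 array above and 1 below both unstressed arrays. The inductions of 1.20, 1.00 and 1.12 were not called (adjusted p = 0.153, 0.162 and 0.288) and were with the replicate block (0.00145, 0.00255 and 0.00434). The differences of inductions for Atf4 had intervals of more than 1 on either side of their values, from -1.25 to 1.73 in all. Atf5, a bZIP factor close to Atf4, was lower than the pool with SB203580 alone, at -0.46 and -0.49 (mean -0.47, adjusted p = 0.0126), both spots being marked. That call was lost without either array (adjusted p = 0.133 and 0.0838), in the authors' normalised table (-0.24, 0.113) and with another background correction (-0.18, 0.17).

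With SB203580 alone 2 of 8 members were called against 41.3% of all genes, and in untreated p38α-/- MEFs limma called none, 2 at an unadjusted p under 0.05, against 25.7%. From unmarked spots limma called none of 2 members in either group, none at an unadjusted p under 0.05, against 26.6% and 15% of all genes. Stress with SB203580 against stress alone called 1 of 8 members with anisomycin and 1 of 8 after 8 h in NaCl and none with TNFα or after 45 min or 2 h in NaCl, against 0.0415%, 0.208%, 0.0%, 0.0% and 0.0% of all genes. So Atf3 was 1 of 9 genes called for anisomycin, and Ddit4 1 of 45 for 8 h in NaCl. From unmarked spots none of 11 pairs was called, none at an unadjusted p under 0.05, against 0.0493%. Stress with SB203580 against SB203580 alone called Ddit4 after 8 h in NaCl, where 8.22% of all genes were called, and no member with anisomycin (0.0369%), TNFα (0.138%), or 45 min (0.0277%) or 2 h (2.88%) in NaCl. From unmarked spots none of 9 pairs was called, none at an unadjusted p under 0.05, against 2.19%.

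In the knockout limma called no member for stress against untreated, and 5 of 24 pairs had an unadjusted p under 0.05; 0.0784%, 0.111% and 1.25% of all genes were called with anisomycin, TNFα and NaCl. From unmarked spots none of 5 pairs was called, 2 at an unadjusted p under 0.05, against 0.445%. Of knockout stress against wt stress 1 of 8 members was called with anisomycin (1.55% of all genes) and none with TNFα (0.466%) or NaCl (1.17%), and from unmarked spots none of 8 pairs, none at an unadjusted p under 0.05, against 0.828%. The differences of inductions called 1, 0 and 0 of 8 members for anisomycin, TNFα and NaCl in the knockout, where 7.12%, 7.89% and 3.46% of all genes were called. With SB203580 they called 1, 0, 0, 0 and 1 of 8 for anisomycin, TNFα and 45 min, 2 h and 8 h in NaCl, where 8.28%, 8.8%, 0.609%, 9.31% and 3.67% were. For anisomycin most genes so called were higher, 1368 against 175 lower in the knockout and 1460 against 334 with SB203580. For 8 h in NaCl with SB203580 they were 574 and 222, while the member calls were lower. With marked spots left out, the counts for anisomycin were 64 higher and 19 lower in the knockout and 30 and 47 with SB203580. For 8 h in NaCl with SB203580 they were then 13 and 26, so both directions with SB203580 were the opposite. From unmarked spots none of 4 and none of 9 pairs were called, none at an unadjusted p under 0.05, against 0.355% and 0.675%. All comparisons of inductions share the pool and each arm's unstressed arrays, so they are not independent of each other.

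**Figure D4:**
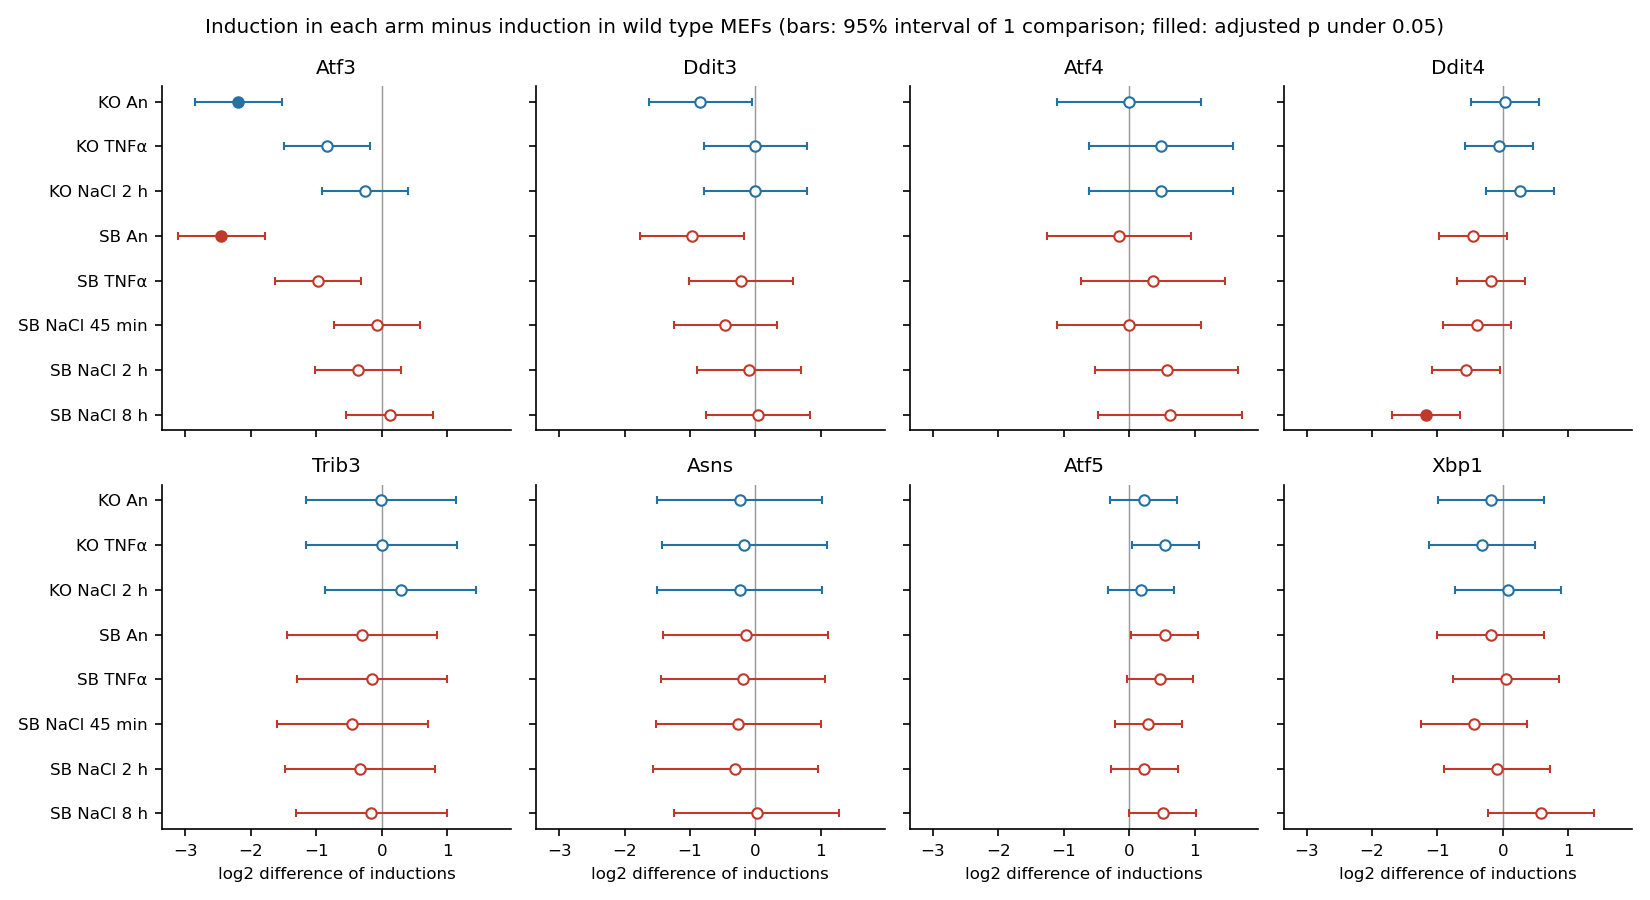
Difference of inductions (x axis, log2: stress minus unstressed in the SB203580 arm, red, or p38α-/- MEFs, blue, minus stress minus pool in wt MEFs) for each member and treatment (y axis); points are estimates over 2 arrays a group, bars are 95% intervals of 1 comparison and filled points have an adjusted p under 0.05. The filled points are Atf3 with anisomycin at -2.45 and -2.19 and Ddit4 after 8 h in NaCl at -1.18.

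Asns, which makes asparagine, and Trib3 differed between the 2 experiments more than between treatments. On array 1 of the 4 knockout groups Asns was 1.26 to 1.45, and on array 2 it was 0.00 to 0.15. Wt arrays of Asns lay between -0.26 and 0.61. Asns was therefore above every wt array in 1 knockout experiment and within their range in the other, and array 1 was the higher in all 4 knockout and all 11 wt groups. The 2 arrays of a group were also scanned in different batches, so experiment and scanning batch cannot be told apart within a genotype. The mean of the untreated knockout, 0.79 ± 0.91 (SD, n = 2), was not called (limma adjusted p = 0.105), while the replicate block gave 5.22e-06. The same holds for Asns in knockout against wt under anisomycin (0.55), TNFα (0.63) and NaCl (0.55), with adjusted p of 0.663, 0.74 and 0.631, and 0.012, 0.0117 and 0.0148 with the block. From unmarked spots the NaCl value of 0.55 was not called, with a limma adjusted p of 0.701, and 0.119 with the block.

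The 2 Trib3 probes did not move together. A_51_P331570 was 1.68 to 1.96 on array 1 of the knockout groups and -0.13 to 0.20 on array 2, and it was also 1.92 on array 1 with SB203580 alone against 0.11 on array 2. A_52_P600274 lay between -0.61 and 0.46 on all arrays. Of the 9 member probes, A_51_P331570 is the 1 whose accession the RefSeq table does not list for its gene. The mean of both probes was higher on array 1 in all 15 groups and was not called in any comparison, nor was either probe alone. With the block the mean was called with SB203580 alone (0.38, adjusted p = 0.351; 0.00108 with the block) and in the untreated knockout (0.40, 0.387 and 0.00112). It was also called with the block for 2 h in NaCl in the inhibitor arm (-0.47, 0.604 and 0.0215) and in the knockout against wt (0.69, 0.494 and 0.00224). From unmarked spots, A_51_P331570 and A_52_P600274 were 1.02 and -0.25 with SB203580 alone, and 0.97 and -0.17 in the untreated knockout. For 2 h in NaCl they were -1.17 and 0.23 in the inhibitor arm, and 0.71 and 0.68 in the knockout against wt.

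**Figure D5:**
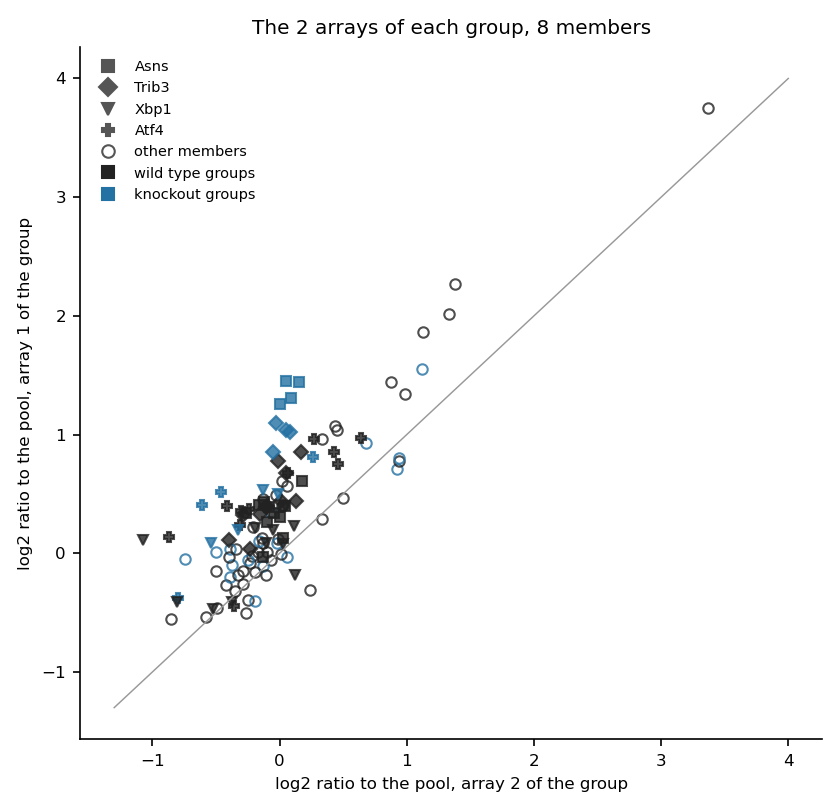
Log2 ratio on array 1 (y axis) against array 2 (x axis) of the same group for the 8 members in 15 groups; the line marks equal values, black is wt and blue is p38α-/-. The 4 knockout points of Asns lie at 1.26 to 1.45 on array 1 and at 0.00 to 0.15 on array 2, and the largest response, Atf3 with anisomycin, lies near the line.

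With the 15 groups ordered by mean, of the 14 neighbouring pairs of groups, 13 overlapped over their arrays for Atf3, Ddit3, Ddit4 and Atf5, and all 14 did for Atf4, Trib3, Asns and Xbp1. For Atf3 the gap lay between wt MEFs with anisomycin and the next group, TNFα. Over the 15 group means, which all share the pool, the genes most like Atf3 by Pearson r were Ifrd1 (r = 0.941), Plk3 (0.922) and 3110018C07Rik (0.908). For Ddit3 they were Hist3h2a (0.958), Ier5l (0.873) and Jund1 (0.849). For Ddit4 they were 1810026B05Rik (0.746), Snrpd1 (0.724) and Abo (0.723), a weaker likeness. The closest to Atf4 was 4931403E03Rik (0.908), to Atf5 Cacng4 (0.951), to Trib3 A130092J06Rik (0.888), to Asns Bcat1 (0.956), which starts the breakdown of branched-chain amino acids, and to Xbp1 Gimap1 (0.856). These are descriptions over the 21675 genes.

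Around the members, the rest of the pathway was read from unmarked spots in lists of known genes, in wt MEFs against the pool. Among all genes so tested, 5.72% rose and 6.2% fell with anisomycin, 5.2% and 5.56% with TNFα, and 4.68% and 5.15%, 5.27% and 4.66%, and 11.0% and 11.2% after 45 min, 2 h and 8 h in NaCl. The counts in the lists are descriptions, and whether a list differed from these shares was not tested. Of 22 ATF4 targets on the array outside the tRNA synthetases, 11 could be tested with anisomycin, where 1 rose and none fell, and the list's median was 0.24 against 0.0 for all genes. After 8 h in NaCl 2 of 13 rose and 1 fell (median 0.36), the last being Sesn2 (-0.36), a share called of about that of all genes. Those that rose were Slc38a2, an amino acid transporter, at 1.39 and 1.74 (adjusted p = 2.94e-06), and Ddit4l, the paralog of Ddit4, at 1.40 and 1.68 (adjusted p = 2.73e-08). Slc38a2 at 0.62 and Vldlr at 0.44 rose after 2 h, where 1 of 14 fell (Slc7a1, a cationic amino acid transporter, -0.38), Fgf21 at 0.64 rose with anisomycin and Sesn2 at -0.45 fell after 45 min in NaCl. With TNFα none of 11 was called.

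Among C/EBP and bZIP partners of ATF4, 2 of 6 tested rose with anisomycin, Nfe2l2 (0.76), the oxidative stress factor NRF2, and Cebpg (0.44), which pairs with ATF4. With TNFα 2 of 6 rose, Cebpd (1.47) and Nfe2l2 (0.76), after 45 min in NaCl none of 6, after 2 h 1 of 7, Nfe2l2 (0.80), and after 8 h 3 of 7, Atf6 (1.22), Cebpg (0.84) and Nfe2l2 (0.46). None fell in any of the 5 treatments, and the shares of all genes that rose were 5.72%, 5.2%, 4.68%, 5.27% and 11.0%. Of the eIF2α kinases and phosphatase subunits, Eif2ak3, which encodes PERK, rose after 45 min (0.46), 2 h (0.49) and 8 h in NaCl (0.66), and Eif2s1, eIF2α itself, rose after 8 h (0.80). In all, 1 of 4, 1 of 6 and 3 of 6 rose at these times, with Ppp1r15b (0.60) the last of the 3, and 1 of 6 fell at 8 h, Eif2ak4 (-0.41), which encodes GCN2, while none of 6 was called with anisomycin or TNFα; of all genes 4.68%, 5.27% and 11.0% rose at the 3 times in NaCl and 11.2% fell at 8 h.

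Many cytosolic tRNA synthetases are ATF4 targets too, but the list read here was not limited to those. With anisomycin 4 of 12 tested fell and none rose (median -0.27), against 6.2% and 5.72% of all genes, led by Qars (-0.89, adjusted p = 0.00405) and Hars (-0.86, adjusted p = 0.00315), the others being Aars (-0.75) and Farsla (-0.37). With TNFα 1 of 10 fell (Hars, -0.66), after 45 min in NaCl none of 9, after 2 h 1 of 13 (Farsla, -0.32) and after 8 h 1 of 11 (Rars, -0.71), where 5.56%, 5.15%, 4.66% and 11.2% of all genes fell. On the Xbp1 and ATF6 side of the unfolded protein response, the chaperone gene Dnajb9 rose after 2 h (1.1, 1 of 13 tested) and 8 h in NaCl (1.36), with Hyou1 (0.89) and Hspa5 (0.74) making 3 of 15 at 8 h, where 5.27% and 11.0% of all genes rose. Ern1, which encodes IRE1, fell with anisomycin (-0.42, 1 of 11, against 6.2%), and none of 9 with TNFα or of 6 after 45 min in NaCl was called.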

How the data were processed

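RNA of 30 samples of MEFs was hybridised by the authors, labelled with Cy5, against a Cy3-labelled pool of 2 untreated wt cultures on whole mouse genome arrays. The deposited array files give the processed intensity of each dye and its log10 ratio (Cy5 over Cy3), background-subtracted and dye-normalised by Feature Extraction, version 9.1 per the labels and 8.1.1.1 per the file headers. The deposited series table holds normalised log2 ratios, whose medians per array of -0.06 to 0.03 show it to be centred; it was used as an alternative.

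Control spots were dropped, log10 ratios were turned to log2 and spots of a probe, then probes of a gene, were averaged. Limma 3.58.1 (R 4.3.3) fitted 1 mean per group over all 30 arrays, and each of 37 comparisons was adjusted by Benjamini-Hochberg over all genes measured on every array of its groups. The planned fit left out spots marked as outliers; the fit on all spots, used for most member values, is an alternative. Its blocked, leave-one-out, scanning batch, normexp and brightest-probe versions, and the Trib3 probes alone, were added after the data were seen. Scripts were tested on simulated data and against limma. Python 3.11.15 made the tables and the plots.

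Replicate numbers paired the arrays within a genotype: deviations from the group means on unmarked spots correlated above 0.1 in 55 of 55 pairs of wt groups (0.133 to 0.645) and 6 of 6 knockout pairs (0.151 to 0.447), and in 6 of 44 across genotypes; on all spots in 52 of 55, 6 of 6 and 11 of 44. Scanning fell into 4 batches: wt arrays 1, wt arrays 2 with knockout arrays 1, and knockout arrays 2 in the other 2.

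The members and the gene lists were chosen with earlier results of these data known. Named besides the members were Mapk14, the 2 called genes of each list with the largest mean in each wt treatment, and the 3 genes most like each member, of which only the closest is given for 5 members. Slc7a1, Ppp1r15b, Eif2ak4, Aars, Hspa5, and Nfe2l2 and Sesn2 at 8 h and Farsla with anisomycin, were named after their values were seen. The precision is limited by 2 arrays a group.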

Additional observations from a re-analysis of the deposited data

Results flagged for a closer look

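Of the differences of inductions of the 8 members, 3 passed limma's test of the difference itself, on all spots. Atf3 with anisomycin was induced less in p38α-/- MEFs than in wt MEFs, by -2.19 on the log2 scale (SE 0.32, adjusted p = 0.00115), and less with SB203580, by -2.45 (SE 0.32, adjusted p = 0.00144). Ddit4 after 8 h in NaCl differed with SB203580 by -1.18 (SE 0.25, adjusted p = 0.0236), and this call was lost in 4 of 30 fits that left out 1 array. The part of the outlier marks and of the unswapped dyes in these values was not tested, and each of the 3 rests on at least 1 marked spot.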

How the results depend on the processing

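Counts of called pairs follow, in this order: wt stress against the pool, SB203580 alone, untreated knockout, SB203580 with stress against stress, the same against SB203580 alone, knockout stress against untreated, knockout against wt stress, differences of inductions for the knockout and for SB203580, NaCl times, and treatments at 45 min. From unmarked spots they were 1 and then 0 throughout, and 4, 2, 0, 2, 1, 0, 1, 1, 2, 1 and 4 with marked spots kept. The authors' table gave 4, 1, 1, 2, 2, 1, 1, 2, 3, 1 and 5. On unmarked spots the replicate block, with replicates paired by number, gave 2 for wt stress and 1 for SB203580 alone, the untreated knockout, stress against SB203580 alone, knockout against wt stress and NaCl times. Scanning batch as a block there gave 7 for wt stress, 4 for knockout against wt stress and 1 for the untreated knockout, stress against SB203580 alone, differences for the knockout and NaCl times. A 2.5-fold mean in place of the adjusted p left 0 wt stress pairs. On all spots the replicate block gave 10, 4, 3, 2, 7, 3, 7, 2, 5, 5 and 5, and scanning batch as a block 19, 4, 3, 2, 7, 3, 7, 4, 9, 5 and 5. Normexp with loess gave 6, 1, 1, 2, 2, 1, 1, 2, 5, 1 and 5, and the brightest probe 4, 2, 0, 1, 1, 0, 1, 1, 3, 1 and 4. The cause of these shifts was not tested, except that leaving out marked spots leaves fewer pairs to test. Scanning batch as a block also moves all wt values of a gene against the pool by a shared amount, taken in part from batches that hold knockout arrays alone.

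Leaving out 1 array at a time, the unmarked counts ran 0 to 3, 0 to 2, 0 to 0, 0 to 0, 0 to 1, 0 to 0, 0 to 1, 0 to 1, 0 to 0, 0 to 1 and 0 to 1, and those on all spots 4 to 5, 0 to 2, 0 to 1, 1 to 2, 0 to 2, 0 to 1, 1 to 1, 1 to 1, 1 to 4, 1 to 1 and 3 to 5. A group left with 1 array was taken to vary like the others. No called member value changed sign under the alternatives run; values that were not called were not followed for sign. The replicate block changed no member call beyond those given in the text. On all spots, leaving out 1 array also made calls: Atf3 in knockout anisomycin against untreated in 8 fits, Ddit3 in anisomycin against TNFα in 5 (1.96 without anisomycin array 2), Ddit4 in 2 h of NaCl with SB203580 against SB203580 alone in 3 (-1.01 without SB203580 array 2), and Ddit3 in the anisomycin difference of inductions with SB203580 in 2 (-1.42 without anisomycin array 2, -1.29 without SB203580 array 2). In 1 fit each they were Asns in the untreated knockout (1.44 without its array 2), Ddit4 after 8 h in NaCl (0.57 without its array 2) and Ddit4 in the 2 h difference with SB203580 (-0.86 without SB203580 array 2).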
